A study of Rattus norvegicus with 12 samples.

Results

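The genes described here encode the machinery of oxidative phosphorylation that is made from nuclear genes, grouped by respiratory complex, in rat ventral midbrain cultures after depolarization with potassium chloride. Members were all genes whose array symbol begins with Nduf, Uqcr or Atp5, the Sdh genes, and genes whose symbol begins with the prefixes of the Cox4 to Cox8 families. Only probe sets annotated with a single gene symbol were used, and a gene was represented by the brightest of its probe sets, judged by the mean of 12 arrays. The rule found 89 probe sets for 84 genes, of 10411 genes with a symbol of their own on the array. Of the 84, 34 encode subunits of complex I, 4 of complex II, 7 of complex III, 15 of complex IV and 15 of complex V. The other 9 carry the same name stems without being subunits: 5 complex I assembly factors, the ATP synthase inhibitor Atp5if1, the supercomplex factor Cox7a2l, the Ndufa4 relative Ndufa4l2 and the pseudogene Cox6c-ps1.

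Cells were taken from the ventral midbrain of CD1 rat embryos on day 12. Expansion took 6 days in serum-free medium that held 20 ng/ml of basic fibroblast growth factor (bFGF) and 50 ng/ml of Sonic hedgehog, and both factors were then withdrawn for 3 days. On day 9 some dishes received 56 mM KCl for 2 h while others stayed in control medium, and RNA was harvested either 30 min or 2 h later. The groups were cultures depolarized and collected at 30 min, controls collected at 30 min, cultures depolarized and collected at 2 h, and controls collected at 2 h, with 3 arrays in each of the 4 groups. All cultures shared the expansion with both factors and their withdrawal. Embryos of 4 rats were mixed into 3 pools and RNA of duplicate dishes was combined, so the spread between arrays is that between pooled cultures, and p-values measure only that spread.

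Oxidative phosphorylation couples the transfer of electrons from NADH and succinate to oxygen with the pumping of protons across the inner mitochondrial membrane. Complex I takes electrons from NADH and complex II takes them from succinate; both hand them to coenzyme Q, complex III passes them to cytochrome c, complex IV passes them to oxygen, and complex V uses the proton gradient to make ATP. Neurons draw most of their ATP from this route and spend much of it on restoring ion gradients after depolarization. A few subunits of complexes I, III, IV and V are encoded in mitochondrial DNA and are not members here.

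Expression is given as the log2 value of a probe set, and every difference below is in log2 units, depolarized minus control unless another pair is named. A member is said to have risen or fallen where its adjusted p was under 0.05 in a limma fit of all 12 arrays, the p-values being adjusted (Benjamini-Hochberg) across 15866 probe sets. Arrays of one group correlated at 0.9957 to 0.9979 over all probe sets. Most members gave strong signals, 68 of the 84 lying in the brightest 25% of probe sets. Neuronal Tubb3 differed by collection time, with 11.46 to 11.87 on the arrays at 30 min and 12.56 to 12.84 on those at 2 h. Th, which encodes the rate-limiting enzyme of dopamine synthesis and marks dopaminergic neurons, ranged from 7.39 to 8.22 over the 12 arrays. In such mixed cultures, fewer cells of a type and less RNA per cell cannot be told apart.

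At 2 h after depolarization no member rose and 16 of 84 fell (19.0%), where 15.7% of all probe sets fell and 9.51% rose (25.2% in all). Complex I held 12 of the 16 falls: 12 of its 34 subunits fell (35.3%), against 2 of the 41 subunits of complexes II to V (4.88%). These counts leave out subunits whose probe set is shared with a near copy. At an unadjusted limma p under 0.05, 28 members were lower and 0 higher: 19 in complex I, 2 in complex II, 1 in complex III, 3 in complex IV, 1 in complex V and 2 outside the complexes. The share of all probe sets at an unadjusted p under 0.05 was not counted, here or below. It cannot be smaller than the share at the adjusted threshold. The median difference was -0.168 for complex I, -0.130 for complex II, -0.085 for complex III, -0.070 for complex IV and -0.074 for complex V, and it was -0.001 over all probe sets. Differences of single members were small, from -0.49 to 0.10, and 69 of 84 lay below 0. The share of all probe sets below 0 was not counted. In 34 members (40.5%) the 3 depolarized arrays all lay below the 3 control arrays and in 0 they all lay above, where 22.1% of all probe sets lay wholly below and 15.4% wholly above. The difference between complexes was not tested, since subunits of a complex are not replicates of one another.

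**Figure D1:**
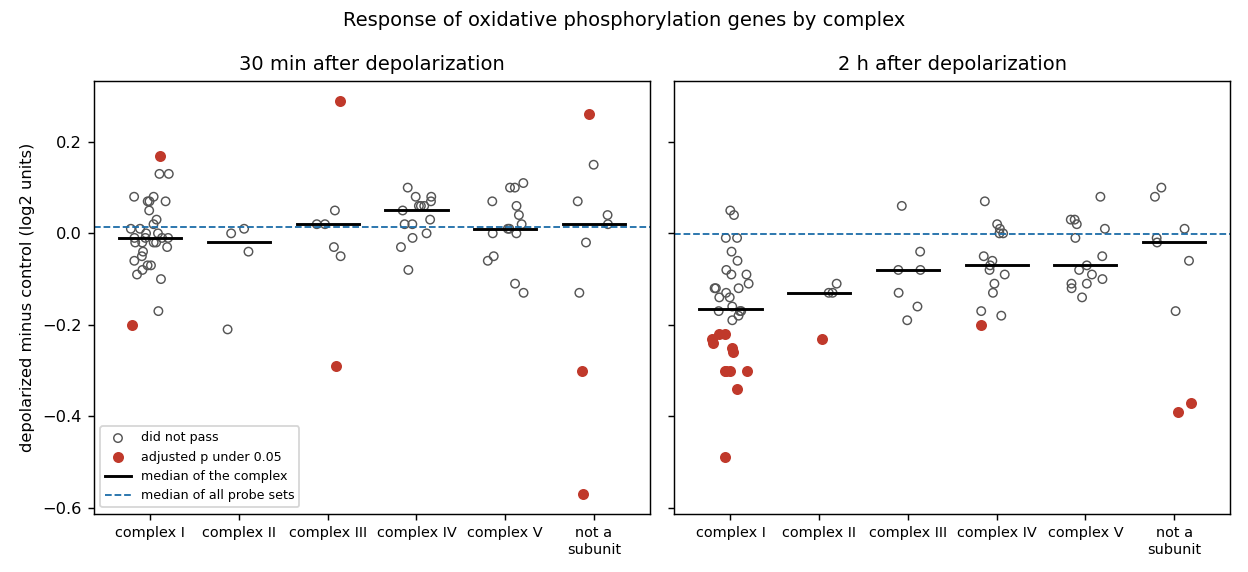
Difference between depolarized and control cultures (log2 units, vertical axis) for each of the 84 genes, grouped by complex (horizontal axis), at 30 min on the left and at 2 h on the right. Filled points passed an adjusted p of 0.05, open points did not, black bars are medians of a complex and the dashed line is the median of all probe sets; 12 of the 16 filled points at 2 h belong to complex I and none lies above 0.

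The largest fall at 2 h was that of Ndufs1, the largest subunit of complex I, which carries iron-sulfur clusters in the NADH-oxidizing arm. Ndufs1 read 9.29, 9.18 and 9.29 in the depolarized cultures at 2 h, against 9.78, 9.73 and 9.71 in the controls. The lowest control lay far above the highest depolarized array, and the difference was -0.49 ± 0.06 (SE, limma adjusted p = 2.83e-05), or 28.6% lower. Ndufv2, a core subunit of the same arm with an iron-sulfur cluster of its own, read 11.09, 11.23 and 11.18 in depolarized cultures and 11.53, 11.56 and 11.31 in controls. Its groups did not overlap, although the third control lay close to the depolarized arrays, and it fell by 0.30 ± 0.07 (limma adjusted p = 0.00732). Ndufs3, a core subunit of the arm that reduces coenzyme Q, read 10.78, 10.86 and 10.81 in depolarized cultures and 11.09, 11.09 and 10.93 in controls. It fell by 0.22 ± 0.07 (limma adjusted p = 0.0266), again without overlap. The other 3 measured core subunits did not pass: Ndufv1, which binds NADH and flavin, differed by -0.19 ± 0.08, Ndufs7 by -0.14 ± 0.06 and Ndufs8 by -0.12 ± 0.08. All 6 core subunits thus lay below 0, with a median of -0.20.

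Of the 28 measured accessory subunits of complex I, which surround the catalytic core, 9 fell and 19 did not pass, with a median of -0.15. Ndufa8, which faces the intermembrane space, read 11.07, 11.07 and 11.03 in depolarized cultures at 2 h and 11.47, 11.38 and 11.34 in controls, a difference of -0.34 ± 0.07 (limma adjusted p = 0.00237). Ndufa6, an accessory subunit of the peripheral arm, read 10.62, 10.80 and 10.80 in depolarized cultures and 11, 11.08 and 11.02 in controls, a difference of -0.30 ± 0.07 (limma adjusted p = 0.00491). In both genes the 3 depolarized arrays were lower than every control. Membrane-arm subunits of the Ndufb family gave 5 of the 9 falls. Ndufb4 read 11.87, 11.92 and 11.86 in depolarized cultures and 12.16, 12.17 and 12.09 in controls, and fell by 0.25 ± 0.06 (limma adjusted p = 0.00593). Ndufb3 fell by 0.30 ± 0.08, Ndufb1 by 0.26 ± 0.07, Ndufb7 by 0.23 ± 0.08 and Ndufb9 by 0.22 ± 0.07. Ndufb7 was the only member of the 16 whose groups overlapped, with 10.95 to 11.09 in depolarized cultures and 11.08 to 11.40 in controls.

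Ndufa3, an accessory subunit of the membrane arm, fell by 0.24 ± 0.07, and Ndufv3, an accessory subunit of the NADH-oxidizing arm, fell by 0.30 ± 0.07. Both probe sets of Ndufv3 fell at 2 h, the dimmer one by 0.31 ± 0.08. The remaining 19 accessory subunits ranged from -0.18 (Ndufa2) to 0.05 (Ndufb11). The smallest differences within complex I were those of Ndufa9, which lies near the coenzyme Q site, at -0.01 ± 0.08 (limma adjusted p = 0.958), and of Ndufs4, a peripheral-arm accessory subunit, at -0.01 ± 0.07 (limma adjusted p = 0.926). Ndufa9 read 11.33, 11.29 and 11.43 in depolarized cultures and 11.47, 11.26 and 11.35 in controls, so its groups overlapped throughout.

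The count for complex I depended on single arrays. It ranged from 6 to 18 falls of 34 when each 2 h array was left out in turn: 6 without control replicate 5, 7 without control replicate 4, 7 without depolarized replicate 4 and 18 without control replicate 6. Over the 15 alternatives tried, leave-one-out included, the complex I median stayed between -0.212 and -0.125, and 0 of its subunits rose. Probe sets of complex I were also less bright than those of the others, with a median level of 11.30, against 12.12 in complex IV and 12.30 in complex V, and over all probe sets, split by brightness into 4 classes of equal size, the brightest class had a median difference of -0.04 and the next one of -0.09. These median levels all lie in the brightest class, which holds 68 of the 84 members, so the classes do not separate the complexes. What part brightness has in the difference between complexes was not tested.

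Promoter sequences are shown for the 4 members with the largest falls at 2 h that have an entry in the RefSeq promoter table (build GRCr8; 250 bases before to 50 after the annotated start), to set the genes that fell beside the motifs known to control nuclear respiratory genes. Ndufa6 and Atp5pf, chosen after their motifs were seen, are added because each holds all 3 motifs: the first fell at 2 h and the other did not pass. The windows are chr9:72073556-72073855 on the minus strand for Ndufs1, chr8:118141674-118141973 on the minus strand for the assembly factor Ndufaf3, chr6:21871916-21872215 on the minus strand for the assembly factor Ndufaf7, chr9:67623167-67623466 on the plus strand for Ndufb3, chr7:115750268-115750567 on the minus strand for Ndufa6 and chr11:37375052-37375351 on the minus strand for Atp5pf, a stalk subunit of complex V. Each is written 5′ to 3′ along the gene's strand, and capitals mark a match on either strand to the NRF1 half-site GCATGCG, the ETS core CCGGAAG bound by GABP, or the YY1 core AAGATGG.
Ndufs1: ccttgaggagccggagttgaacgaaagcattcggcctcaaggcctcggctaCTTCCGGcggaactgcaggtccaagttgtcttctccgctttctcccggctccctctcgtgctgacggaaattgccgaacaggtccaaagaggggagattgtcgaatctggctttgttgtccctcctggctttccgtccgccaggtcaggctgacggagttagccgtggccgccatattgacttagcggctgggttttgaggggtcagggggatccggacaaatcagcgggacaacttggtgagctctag
Ndufaf3: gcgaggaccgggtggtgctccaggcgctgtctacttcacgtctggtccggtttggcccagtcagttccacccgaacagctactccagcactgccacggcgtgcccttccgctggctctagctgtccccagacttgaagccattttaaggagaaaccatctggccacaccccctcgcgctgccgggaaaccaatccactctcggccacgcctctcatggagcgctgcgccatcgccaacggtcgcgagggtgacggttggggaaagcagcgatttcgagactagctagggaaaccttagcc
Ndufaf7: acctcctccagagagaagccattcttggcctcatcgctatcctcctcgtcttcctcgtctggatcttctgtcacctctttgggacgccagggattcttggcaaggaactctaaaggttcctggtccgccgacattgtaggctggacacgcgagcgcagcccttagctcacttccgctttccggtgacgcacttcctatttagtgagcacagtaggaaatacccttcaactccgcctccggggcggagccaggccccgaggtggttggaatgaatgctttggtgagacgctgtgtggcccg
Ndufb3: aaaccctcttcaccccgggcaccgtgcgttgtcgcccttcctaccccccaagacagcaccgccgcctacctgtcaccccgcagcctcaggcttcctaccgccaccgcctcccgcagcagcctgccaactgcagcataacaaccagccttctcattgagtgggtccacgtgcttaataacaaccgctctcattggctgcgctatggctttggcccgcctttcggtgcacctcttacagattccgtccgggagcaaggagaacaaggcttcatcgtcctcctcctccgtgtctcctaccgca
Ndufa6: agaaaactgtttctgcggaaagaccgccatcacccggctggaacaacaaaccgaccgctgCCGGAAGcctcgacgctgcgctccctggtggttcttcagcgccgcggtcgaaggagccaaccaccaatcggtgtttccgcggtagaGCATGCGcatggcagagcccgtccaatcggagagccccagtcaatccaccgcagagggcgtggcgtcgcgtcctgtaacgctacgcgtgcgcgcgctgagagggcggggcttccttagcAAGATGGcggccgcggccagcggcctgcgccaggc
Atp5pf: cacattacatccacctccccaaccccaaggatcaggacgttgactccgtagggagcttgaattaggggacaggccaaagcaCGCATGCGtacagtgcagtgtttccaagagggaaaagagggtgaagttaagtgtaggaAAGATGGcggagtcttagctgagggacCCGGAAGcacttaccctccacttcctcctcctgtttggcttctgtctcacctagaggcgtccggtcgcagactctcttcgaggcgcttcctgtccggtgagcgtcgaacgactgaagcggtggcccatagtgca

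Ndufs1 holds the ETS core on its minus strand at position -199 from the start, and the promoters of Ndufaf3, Ndufaf7 and Ndufb3 hold none of the 3 motifs in this window. In Ndufa6 the NRF1 half-site lies at position -104 and the ETS core at -190, and the YY1 core at 16. Of the 84 members, 76 had a promoter in the table. The NRF1 half-site was found in 11 of the 76 (14.5%), against 3.54% of all 27457 promoters of the same length, the ETS core in 21 (27.6%), against 9.22%, and the YY1 core in 20 (26.3%), against 7.30%. No matches of different motifs shared letters in the members' promoters, although the NRF1 letters can match both strands at once, as in Atp5pf. Among members that fell at 2 h, against those that did not pass, the ETS core was found in 4 of 14 against 17 of 62 (28.6% and 27.4%), the YY1 core in 3 of 14 against 17 of 62 (21.4% and 27.4%), and the NRF1 half-site in 1 of 14 against 10 of 62 (7.14% and 16.1%). These differences were not tested. A match describes the letters of the window and is not a measured binding site.

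Complex II, which oxidizes succinate, had 1 fall among its 4 subunits at 2 h. Sdha, the flavin-binding catalytic subunit, read 10.49, 10.33 and 10.48 in depolarized cultures, against 10.73, 10.65 and 10.63 in controls. The groups did not overlap and the difference was -0.23 ± 0.08 (limma adjusted p = 0.0351), a call that was lost when either of control replicates 4 and 5 or any single depolarized array was left out. The iron-sulfur subunit Sdhb differed by -0.13 ± 0.06, and the membrane anchors Sdhc and Sdhd by -0.11 ± 0.06 and -0.13 ± 0.06, and none of the 3 passed. In Sdhc the 3 depolarized arrays (11.75, 11.64 and 11.78) still lay at or below the lowest control (11.85, 11.78 and 11.88). The second probe set of Sdhd differed by -0.06 ± 0.06.

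No member of complex III passed at 2 h, although a probe set shared by Uqcrb and a near copy, not a member, fell (-0.26 ± 0.06). The nearest was Uqcr11, a small subunit, at -0.19 ± 0.07 (limma adjusted p = 0.0793), with 10.91, 10.92 and 10.93 in depolarized cultures and 11.12, 11.24 and 10.95 in controls. The Rieske iron-sulfur protein Uqcrfs1 differed by -0.16 ± 0.08. Uqcrc1, a core protein, had the smallest difference of the complex, -0.04 ± 0.07, and the hinge protein Uqcrh was the only subunit above 0, at 0.06 ± 0.07.

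In complex IV, which reduces oxygen, 1 of 15 members fell at 2 h. Cox8a, a small nuclear subunit, read 12.66, 12.79 and 12.80 in depolarized cultures, against 12.93, 13.01 and 12.90 in controls, a difference of -0.20 ± 0.07 (limma adjusted p = 0.0358). That call was lost when control replicate 4 or 5, or depolarized replicate 4, was left out. The groups did not overlap in Cox8a, in Cox5b (-0.18 ± 0.07), in Cox6b1 (-0.17 ± 0.06) or in Cox6c (-0.11 ± 0.06), of which only Cox8a passed. Cox4i1, the common form of the regulatory subunit IV, gave the smallest difference of all members: it read 12.86, 12.83 and 12.83 in depolarized cultures and 12.86, 12.79 and 12.89 in controls (difference -0.00 ± 0.06, limma adjusted p = 0.985). Its lung isoform Cox4i2 differed by 0.02 ± 0.07. Cox6a1 differed by 0.01 ± 0.07 and its heart and muscle form Cox6a2 by -0.13 ± 0.06, and neither passed. The isoform Cox6b2 differed by 0.00 ± 0.06, beside -0.17 ± 0.06 for Cox6b1, and Cox8b by 0.07 ± 0.07, beside the fall of Cox8a; the differences within these pairs were not tested. The muscle isoform Cox7a1 differed by -0.07 ± 0.07 and the supercomplex factor Cox7a2l by -0.02 ± 0.07, and neither passed. The 5 tissue isoforms (Cox4i2, Cox6a2, Cox6b2, Cox7a1 and Cox8b) had means of 6.10 to 8.24, and the 7 muscle markers measured passed neither at 30 min nor at 2 h (0 and 2 at an unadjusted limma p under 0.05). The only probe set with Cox5a as its sole symbol was dim for a subunit of this complex, at 8.55.

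Complex V, the ATP synthase, had 0 falls and 0 rises among its 15 members at 2 h, with differences from -0.14 to 0.08. A probe set shared by Atp5mc1 and a near copy, not a member, fell (-0.23 ± 0.06). The catalytic subunit Atp5f1b read 13.29, 13.08 and 13.32 in depolarized cultures and 13.26, 13.26 and 13.21 in controls, a difference of -0.01 ± 0.07 (limma adjusted p = 0.952). Its groups overlapped. Atp5mk, a small membrane subunit, came nearest to the threshold at -0.14 ± 0.06 (limma adjusted p = 0.0996). The stalk subunit Atp5pb lay highest, at 0.08 ± 0.08. At an SE of 0.06 to 0.08, a difference of the size seen in Ndufs1 would stand well outside these errors, and one of 0.1 would not.

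**Figure D2:**
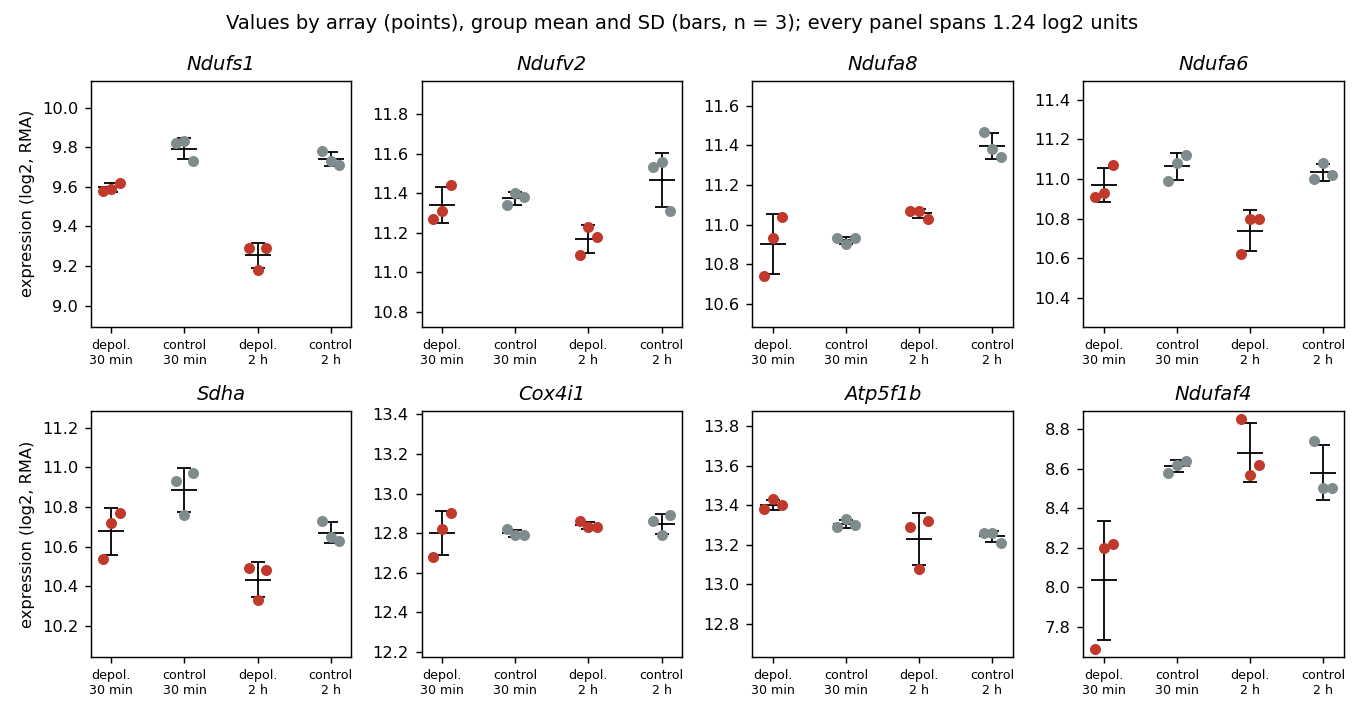
Expression (log2, vertical axis) on each array for 8 members in depolarized and control cultures at 30 min and at 2 h (horizontal axis), with group mean and SD (n = 3). At 2 h the depolarized arrays of Ndufs1 (9.18 to 9.29), Ndufv2, Ndufa8, Ndufa6 and Sdha lie below all controls, those of Cox4i1 (12.83 to 12.86) lie within the range of the controls, those of Atp5f1b (13.08 to 13.32) lie on both sides of it, and Ndufaf4 is low in the depolarized arrays at 30 min only (7.69 to 8.22).

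Assembly factors build complex I without remaining in it, and 2 of the 5 measured under the Nduf stem fell at 2 h. Ndufaf3, which acts in building the coenzyme Q module, read 9.51, 9.4 and 9.56 in depolarized cultures and 9.86, 9.94 and 9.82 in controls, a difference of -0.39 ± 0.06 (limma adjusted p = 0.000363). Ndufaf7, which methylates a core subunit during assembly, read 7.83, 8.05 and 8.03 in depolarized cultures and 8.32, 8.43 and 8.26 in controls, a difference of -0.37 ± 0.08 (limma adjusted p = 0.00301). Neither pair of groups overlapped. Ndufaf8 differed by -0.17 ± 0.08, Ndufaf4 by 0.10 ± 0.12 and Ndufaf5 by 0.01 ± 0.07, and these did not pass. Atp5if1, which blocks ATP hydrolysis by complex V, differed by -0.06 ± 0.07.

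Of the 16 falls at 2 h, 7 were called under every alternative setting and with each array left out: the subunits Ndufs1, Ndufv2, Ndufa6, Ndufa8 and Ndufb4 and the assembly factors Ndufaf3 and Ndufaf7. No called difference changed sign. The depolarized arrays at 2 h were also set beside the controls collected at 30 min, as a description only. They are the arrays by which the 16 were called, and the 2 sides differ in collection time as well as treatment. The share of all probe sets in this comparison was not counted. In 12 of the 16, the depolarized arrays at 2 h lay wholly below the 30 min controls. In Ndufa8 and Ndufv3 they lay wholly above them, and in Ndufb7 and Ndufb9 the ranges overlapped.

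At 30 min the members as a group did not shift: 3 rose and 4 fell of 84, where 10.8% of all probe sets rose and 13.1% fell (24% in all), and the median was 0.007 against 0.014 over all probe sets. The depolarized arrays lay wholly below the controls in 8 members and wholly above in 10 (9.52% and 11.9%), where 18.9% and 17.9% of all probe sets did. Ndufaf4, the partner of Ndufaf3 in assembly, had the largest difference. It read 7.69, 8.20 and 8.22 in depolarized cultures at 30 min, against 8.58, 8.62 and 8.64 in controls, so that all depolarized arrays were below all controls and 1 of them far below. The difference was -0.57 ± 0.12 (limma adjusted p = 0.00177), and it ranged from -0.66 to -0.40 over the alternatives. Ndufaf3 read 9.55, 9.51 and 9.58 in depolarized cultures and 9.88, 9.78 and 9.88 in controls, a difference of -0.30 ± 0.06 (limma adjusted p = 0.00219).

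Among subunits at 30 min, Uqcrh and Uqcrfs1, both of complex III, moved in opposite directions. Uqcrh, the hinge protein that links cytochrome c1 to cytochrome c, read 12.04, 12.14 and 12.18 in depolarized cultures and 11.81, 11.85 and 11.82 in controls, and rose by 0.29 ± 0.07 (limma adjusted p = 0.00632). Uqcrfs1 read 11.55, 11.79 and 11.85 in depolarized cultures and 12, 11.96 and 12.09 in controls, and fell by 0.29 ± 0.08 (limma adjusted p = 0.0109). Neither overlapped, but the call for Uqcrfs1 was lost without control replicate 3 or without depolarized replicate 1. Complex I had 1 rise, Ndufb11 at 0.17 ± 0.06, and 1 fall, Ndufs1 at -0.20 ± 0.06, with 9.58, 9.59 and 9.62 in depolarized cultures and 9.82, 9.83 and 9.73 in controls. The call for Ndufb11 was lost whichever of the 6 arrays at 30 min was left out, and that for Ndufs1 was lost without control replicate 1 or 2, or without depolarized replicate 1 or 2. No subunit of complexes II, IV or V passed at 30 min in limma (1, 0 and 0 at an unadjusted p under 0.05), with medians of -0.02, 0.05 and 0.01.

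Atp5if1 rose at 30 min at its brightest probe set, with 9.80, 9.93 and 10.06 in depolarized cultures and 9.77, 9.63 and 9.62 in controls (0.26 ± 0.07, limma adjusted p = 0.0161). The lowest depolarized array lay just above the highest control, and its call was lost when control replicate 2, control replicate 3 or depolarized replicate 3 was left out. Its 2 other probe sets, with means of 5.67 and 5.53, did not pass. Ndufv3 differed between its probe sets at 30 min: the dimmer one fell by 0.49 ± 0.08 (limma adjusted p = 0.00037), and the brighter one, which represents the gene here, differed by -0.10 ± 0.07 (limma adjusted p = 0.439). Ndufs1 and Ndufaf3 were the members that fell at both collection times.

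The difference between the 2 responses, that at 2 h minus that at 30 min, was tested as an interaction. In it, a change of the response with collection time and a difference between preparations cannot be told apart. Of 84 members 3 were lower and 1 higher, where 6.79% of all probe sets were lower and 6.16% higher. Those lower were complex I subunits: Ndufa8 at -0.32 ± 0.10 (limma adjusted p = 0.0491), Ndufa3 at -0.31 ± 0.10 (limma adjusted p = 0.0446) and Ndufs1 at -0.29 ± 0.08 (limma adjusted p = 0.0308). Ndufaf4 was higher, at 0.68 ± 0.17 (limma adjusted p = 0.0131), since its difference was -0.57 at 30 min and 0.10 at 2 h. All 34 complex I differences lay below 0, from -0.32 to -0.01, with a median of -0.16. The median was -0.015 over all probe sets and -0.056 over the brightest class, which holds most of the members. The share of all probe sets below 0 was not counted for the interaction. Subunits were read on the same arrays, so their signs are not independent of one another. In complexes III, IV and V the medians were -0.06, -0.12 and -0.08, and none of their subunits passed in limma (2, 1 and 1 at an unadjusted p under 0.05). Judged at an adjusted p of 0.05, only Ndufaf4 kept its call in every other fit and with each array left out; at 0.01 it too did not pass. Without control replicate 3 at 30 min, control replicate 5 at 2 h, or depolarized replicate 2 or 3 at 30 min, Ndufaf4 was the only member called.

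**Figure D3:**
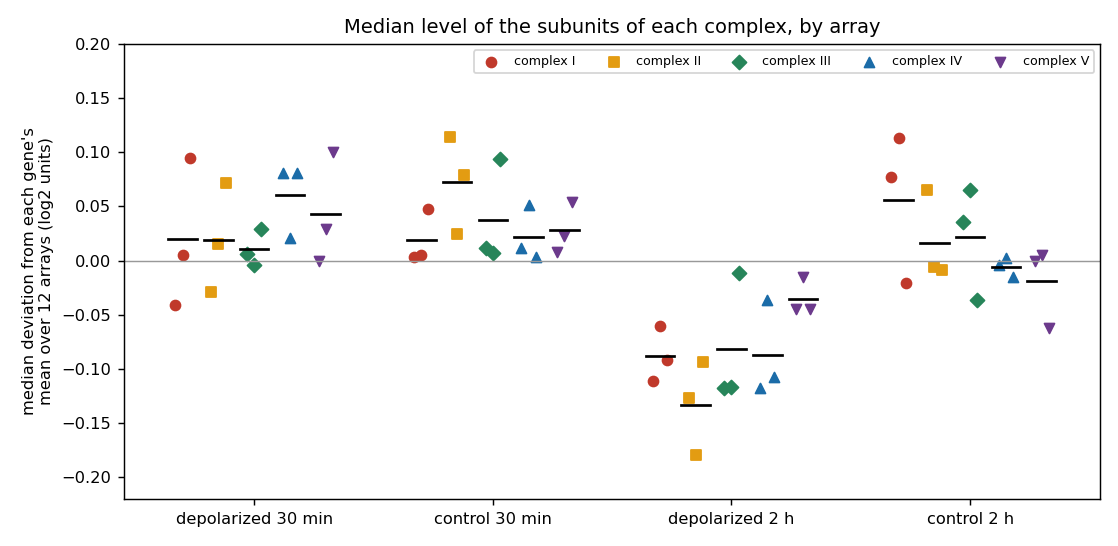
Median over the subunits of each complex of the deviation from the gene's own mean over 12 arrays (log2 units, vertical axis), one point per array, by group (horizontal axis), with bars for the mean of 3 arrays. For complex I the depolarized arrays at 2 h (-0.11, -0.06 and -0.09) lie below the 2 h controls (0.08, 0.11 and -0.02), of which replicate 6 lies lowest.

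The 2 collection times were also compared within depolarized cultures and within controls. The difference between these 2 time contrasts is the interaction above, which called 3 members lower and 1 higher, so the counts below stand side by side without a further test. Collection time and any difference between preparations cannot be told apart, because the labels do not say whether both times came from the same dissection, and these comparisons reuse the arrays of the treatment comparisons. In depolarized cultures, 31 members fell and 3 rose at 2 h against 30 min (36.9% and 3.57%), where 21.8% of all probe sets fell and 19.2% rose, and the median was -0.12 against -0.05. Such falls were not particular to the members: 19 of 44 cytosolic ribosomal proteins fell and 0 rose in this contrast (43.2%, median -0.155). Of 21 glycolysis genes, 5 fell and 6 rose. The members' falls were spread over all complexes: 13 of 34 in complex I, 2 of 4 in complex II, 3 of 7 in complex III, 8 of 15 in complex IV and 5 of 15 in complex V. The depolarized arrays at 2 h lay wholly below those at 30 min in 37 members (44.0%) and wholly above in 4 (4.76%), where 28.3% and 21.6% of all probe sets did. In controls, 6 members rose and 5 fell (7.14% and 5.95%), where 18.1% and 17.2% of all probe sets did. The median over the members was -0.006 in controls, against -0.041 over all probe sets.

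In complex I, the depolarized cultures fell most clearly in Ndufs1, with a difference of -0.34 ± 0.06 at 2 h against 30 min (limma adjusted p = 0.000238), in Ndufa13 (-0.31 ± 0.06) and in Ndufb1 (-0.33 ± 0.07). Ndufa13 read 11.36, 11.36 and 11.47 in depolarized cultures at 2 h and 11.67, 11.69 and 11.78 at 30 min. In controls the same contrast gave no fall in complex I and 5 rises with the values as deposited. Over the 14 alternatives tried, these counts ranged from 0 to 9 falls and from 2 to 7 rises, and the complex I median from -0.035 to 0.077. Ndufa8 had the largest rise: it read 11.47, 11.38 and 11.34 in controls at 2 h and 10.93, 10.90 and 10.93 in controls at 30 min (0.48 ± 0.07, limma adjusted p = 8.39e-05). Ndufv3 rose in controls by 0.42 ± 0.07 and in depolarized cultures by 0.22 ± 0.07, and its dimmer probe set passed in neither. The other rises in controls were Ndufa5 (0.22 ± 0.07), Ndufc2 (0.21 ± 0.07) and Ndufb9 (0.19 ± 0.07). Ndufa8, Ndufv3 and Ndufb9 are thus members whose fall at 2 h was measured against controls that stood higher than those of 30 min.

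Sdha and Sdhd were lower at 2 h in both kinds of culture. Sdhd differed by -0.31 ± 0.06 in depolarized cultures (limma adjusted p = 0.000857) and by -0.22 ± 0.06 in controls (limma adjusted p = 0.0113), and its second probe set by -0.42 ± 0.06 and -0.34 ± 0.06. Sdha differed by -0.24 ± 0.08 in depolarized cultures and by -0.22 ± 0.08 in controls. Sdhb and Sdhc did not pass in either.

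In complex III the small subunits Uqcr11 (-0.27 ± 0.07), Uqcrh (-0.25 ± 0.07) and Uqcrq (-0.22 ± 0.07) fell in depolarized cultures at 2 h against 30 min, and none passed in controls. Uqcrh read 11.79, 11.84 and 11.97 in depolarized cultures at 2 h and 12.04, 12.14 and 12.18 at 30 min. In complex IV, Cox6b2 (-0.35 ± 0.06), Cox6a2 (-0.25 ± 0.06) and Cox6c (-0.20 ± 0.06) had the smallest p among 8 falls in depolarized cultures. In controls the 2 falls of this complex were in the isoforms Cox6b2 (-0.37 ± 0.06) and Cox8b (-0.24 ± 0.07), whose signals near 6 are dim. In complex V, the membrane subunits Atp5me (-0.29 ± 0.07) and Atp5mf (-0.28 ± 0.07) and the stalk subunit Atp5pf (-0.17 ± 0.06) led 5 falls in depolarized cultures, and Atp5me was the single fall in controls (-0.17 ± 0.07). The second, dimmer probe set of Atp5me passed in neither.

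Outside the complexes, Atp5if1 was the member that rose most with time in controls. It read 10.36, 10.37 and 10.20 in controls at 2 h and 9.77, 9.63 and 9.62 in controls at 30 min (0.64 ± 0.07, limma adjusted p = 6.89e-06), and it rose by 0.32 ± 0.07 in depolarized cultures. Ndufaf4 rose by 0.64 ± 0.12 in depolarized cultures at 2 h against 30 min and differed by -0.03 ± 0.12 between the controls.

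Some cell type markers moved with collection time. All 11 neuronal markers measured rose in controls at 2 h against 30 min, with a median difference of 1.06, and their mean level was 11.40 to 11.45 against 10.33 to 10.53. Of the 8 oligodendrocyte markers 6 fell in the same contrast, and of the 8 progenitor markers 6 fell and 1 rose. Between depolarized and control cultures at 2 h the neuronal mean was 11.33 to 11.44 against 11.40 to 11.45, with 2 of 11 markers risen and 0 fallen in limma; at an unadjusted p under 0.05, 3 were lower and 2 higher, and the median difference was -0.117, beside -0.109 over the members. The progenitor mean was 9.59 to 9.66 in depolarized cultures at 2 h, against 9.78 to 9.91 in controls, with 4 of 8 fallen and 1 risen. Of the 8 dopaminergic markers 3 rose and 1 fell at 2 h, and of the 8 oligodendrocyte markers 2 fell. Neither the 10 astrocyte markers nor the 9 microglial markers gave a limma call at 2 h, nor any unadjusted p under 0.05. The part of these shifts in the members' differences was not tested.

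Other mitochondrial gene groups were counted in the same way, beside 15.7% of all probe sets fallen and 9.51% risen at 2 h, and 13.1% and 10.8% at 30 min. Of 43 assembly factors, cytochromes c and electron carriers outside the Nduf stem, 23 fell and 0 rose at 2 h (53.5%, median -0.26), and 18 fell and 2 rose at 30 min. The complex I assembly genes Timmdc1 (-0.57 ± 0.07 at 2 h) and Tmem126a (-0.50 ± 0.06), and Sdhaf2, which helps attach the flavin of Sdha (-0.65 ± 0.08 at 2 h), had the smallest p. Of 71 mitochondrial ribosomal proteins, 45 fell and 0 rose at 2 h (63.4%, median -0.27), and 35 fell and 1 rose at 30 min. Mrpl15 fell by 0.84 ± 0.06 at 30 min and by 0.64 ± 0.06 at 2 h, and Mrpl34 and Mrps17 fell by 0.50 ± 0.06 and 0.48 ± 0.06 at 2 h. Cytosolic ribosomal proteins gave 0 calls of 44 at either time in limma, and 3 at 30 min and 1 at 2 h at an unadjusted p under 0.05. Both mitochondrial groups were called more often than the respiratory subunits themselves, with medians further below 0, and their difference from the members was not tested. They were also dimmer than complexes I, IV and V, with median levels of 9.79 (mitochondrial ribosomal proteins) and 9.09 (assembly factors). The part of brightness was not tested here either.

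**Figure D4:**
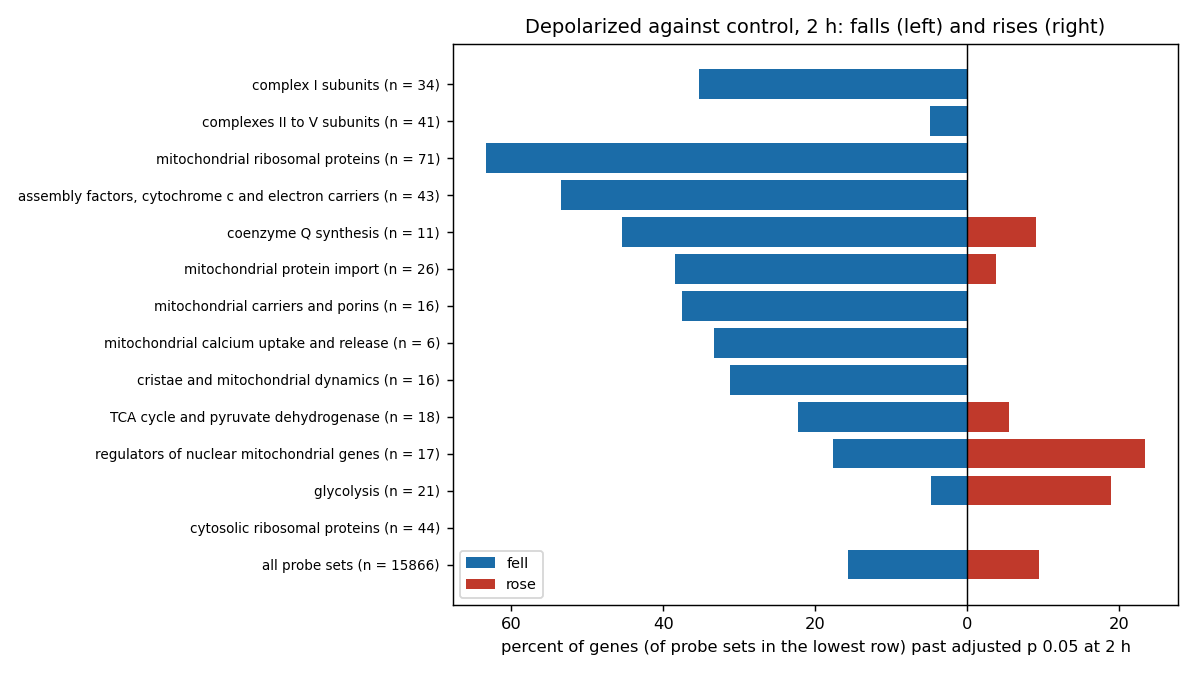
Percent of measured genes that fell (left of 0) or rose (right of 0) at 2 h, depolarized against control, for complex I, complexes II to V and 11 other gene groups (vertical axis, number of genes in brackets), with all probe sets in the lowest row. Mitochondrial ribosomal proteins (63.4%) and assembly factors (53.5%) had higher shares of falls than complex I (35.3%), and cytosolic ribosomal proteins had none.

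Mitochondrial protein import had 10 falls and 1 rise of 26 at 2 h, led by Pam16 (-0.43 ± 0.07), Tomm70 (-0.34 ± 0.06) and Timm22 (-0.40 ± 0.08). Carriers and porins had 6 falls and 0 rises of 16, with Slc25a27 (-0.60 ± 0.09), Slc25a14 (-0.49 ± 0.08) and Slc25a12 (-0.48 ± 0.10) in front. In coenzyme Q synthesis 5 of 11 fell, among them Coq9 (-0.55 ± 0.07) and Coq8a (-0.51 ± 0.08), and Coq10b, a coenzyme Q binding protein, rose by 1.40 ± 0.08 at 30 min and by 0.61 ± 0.08 at 2 h. Of 6 genes for mitochondrial calcium handling, Letm1 (-0.39 ± 0.07) and Micu2 (-0.40 ± 0.07) fell at 2 h. In the group for cristae and mitochondrial dynamics 5 of 16 fell and 0 rose, the clearest being Apoo (-0.38 ± 0.07), Chchd6 (-0.26 ± 0.07) and Mfn2 (-0.21 ± 0.06). In the tricarboxylic acid cycle, which feeds electrons to complexes I and II, 4 of 18 fell and 1 rose at 2 h (22.2% and 5.56%), shares near those of all probe sets; Idh2 (-0.50 ± 0.08), Suclg1 (-0.37 ± 0.08) and Ogdh (-0.29 ± 0.06) had the smallest p.

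Glycolysis had 4 rises and 1 fall of 21 genes at 2 h (19.0% and 4.76%). Hk2, the inducible hexokinase, rose by 0.55 ± 0.07 at 2 h. Pfkfb3, which makes the activator of phosphofructokinase, fell by 0.50 ± 0.06 at 30 min and rose by 0.49 ± 0.06 at 2 h, and Pgam1 rose by 0.31 ± 0.07 at 2 h. Of 17 regulators of nuclear mitochondrial genes, 4 rose and 3 fell at 2 h (23.5% and 17.6%), where 9.51% of all probe sets rose and 15.7% fell. Myc rose by 1.75 ± 0.15 at 30 min and by 1.49 ± 0.15 at 2 h, Polg2, the accessory subunit of the mitochondrial DNA polymerase, by 1.69 ± 0.11 and 0.83 ± 0.11, and Ppard by 0.39 ± 0.07 at 2 h. Tfam, the factor that packages and transcribes mitochondrial DNA, fell by 0.23 ± 0.07 at both times. Ppargc1a, the coactivator best known for driving respiratory genes, had a mean of 4.89, near the floor of the array, and did not pass at either time.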

How the data were processed

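Each of 12 RNA samples was hybridized to one Affymetrix rat array. The authors deposited log2 values per probe set. RMA is named without a version in the submitters' processing notes, and the log2 scale was read from the values themselves (4.41 to 14.58). The sources used here do not say whether all arrays were normalized in one run. Precision is limited by the number of arrays.

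Of 15923 probe sets, 57 array controls were left out. By the platform annotation 12783 probe sets had a single gene symbol, 312 had several and 2771 had none; 7 probe sets with several symbols that match the name stems were left out. With limma 3.58.1 in R 4.3.3, group means were fitted over the 12 arrays (8 residual degrees of freedom, empirical Bayes moderation, two-sided, Benjamini-Hochberg over all 15866 probe sets). The fit was tested on simulated data. A change of 0.25 was recovered in 26% of the altered probe sets at 2 h and in 2% for the response difference, and a change of 1 in 100% and 92%. The simulation altered 50 probe sets per size, far fewer than the 25.2% of all probe sets called at 2 h. Its adjusted threshold was therefore stricter, and these shares do not carry over to the data. In the data at 2 h, every member with a difference at or below -0.20 passed. Errors are the SE of the fit unless SD is named. The members and lists were chosen with earlier results of these data known. Genes named with values were, per complex and comparison, up to 3 calls per direction with the smallest p. They also included all Sdh genes, isoform pairs, members whose probe sets differ in call, and the smallest difference at 2 h per complex. Of each other list, up to 3 genes were named by rule. Further members were chosen after their values were seen, and the regulators Tfam and Ppargc1a were named outside the rule. Promoters were matched by gene identifier, first start listed. Replicate numbers are shared by depolarized and control arrays within a collection time; the deviations of same-numbered arrays correlated between -0.322 and 0.236, so the numbers were not taken to pair cultures.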

Additional observations from a re-analysis of the deposited data

Results flagged for a closer look

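The responses at 30 min and 2 h differed by the interaction test in 4 members. Collection time and any difference between preparations cannot be told apart in this test. Ndufs1 differed by -0.20 at 30 min and by -0.49 at 2 h, so that its response at 2 h was lower by 0.29 (response difference -0.29 ± 0.08, limma adjusted p = 0.0308). Ndufa3 had a response difference of -0.31 ± 0.10 (limma adjusted p = 0.0446) and Ndufa8 one of -0.32 ± 0.10 (limma adjusted p = 0.0491); for Ndufa8, the controls themselves were 0.48 higher at 2 h than at 30 min. Ndufaf4 had a response difference of 0.68 ± 0.17 (limma adjusted p = 0.0131), with 1 of its depolarized arrays at 30 min, at 7.69, well below the other two, at 8.20 and 8.22.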

How the results depend on the processing

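Leaving out one array at a time gave 9 to 25 changed members at 2 h (9 without control replicate 5 or depolarized replicate 4, 10 without control replicate 4 and 25 without control replicate 6), 4 to 7 at 30 min, 1 to 6 for the response difference, 6 to 11 for controls and 23 to 31 for depolarized cultures at 2 h against 30 min; the lowest counts at 30 min came without control replicate 3 or depolarized replicate 1, and the lowest for the controls without control replicate 1 or 5. The medians ranged from -0.123 to -0.088 at 2 h, from -0.018 to 0.021 at 30 min, from -0.143 to -0.102 for the response difference, from -0.015 to 0.030 in controls and from -0.132 to -0.100 in depolarized cultures. At an adjusted p of 0.01 the counts were 8 at 2 h, 3 at 30 min, 0 for the response difference (4 at 0.05), 4 in controls and 15 in depolarized cultures. Median centring moved the members' median to -0.066 at 2 h and 0.056 at 30 min. The median of all probe sets moved upward with it, from -0.001 to 0.043 at 2 h and from 0.014 to 0.063 at 30 min. Quantile normalization moved the members' median to -0.041 at 30 min and -0.063 in controls, and removal of the intensity trend to -0.018 at 30 min. For the response difference, quantile normalization left 1 call, removal of the intensity trend 2 and array weights 8. In controls quantile normalization gave 21 calls, 4 higher and 17 lower. With the replicate block, 14 members changed at 2 h, 5 at 30 min and 1 in the response difference; no block can be fitted to contrasts between times, which share no numbers. The causes were not tested. Each of the 16 falls at 2 h kept its sign under all alternatives and 7 kept their call. The number of arrays, 3 a group, limits the precision of each difference.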

Other observations

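A further 7 probe sets carry the symbol of a respiratory subunit together with that of a near copy, and so were not members. None of the 7 passed at 30 min and 3 fell at 2 h, where 15.7% of all probe sets fell, and the median over the 7 was -0.12. The 3 were those of Ndufa10 of complex I (-0.37 ± 0.07), Uqcrb of complex III (-0.26 ± 0.06) and Atp5mc1 of complex V (-0.23 ± 0.06). Falls at 2 h outside complex I were thus not limited to the members counted above.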
